A study of Mus musculus with 2 samples.

Results

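Hypoxia-inducible genes that are not enzymes of glycolysis were followed in mouse embryoid bodies given the growth factor FGF10. The set held 10 genes, Ndufa4l2, Adm, Ddit4, Ankrd37, Stc2, Bhlhe40, Fam162a, Mxi1, Angptl4 and Ak4, out of 11122 genes measured, and they were read by every probe set whose platform annotation names only that gene, 20 probe sets in all. They were selected on their known response to hypoxia and with the FGF10 to control ratios of these same arrays in view, so those ratios are given as a description and no test is attached to them. Embryoid bodies, the aggregates in which embryonic stem cells start to differentiate, were made in hanging drops from the feeder-free line CGR8 (strain 129). The control group was 1 sample in differentiation medium with no added agent, and the FGF10 group was 1 sample in the same medium with recombinant FGF10 at 100 ng/ml. Both are named as day 2 samples, while the series' design places RNA collection 24 h after treatment, so the exact stage is ambiguous. As each group is a single array, differences have no replicate check and hold for this pair of cultures.

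Cells sense oxygen through prolyl hydroxylases of the Egln family, which mark the alpha subunits of the hypoxia-inducible factors (HIF) for destruction by the Vhl ubiquitin ligase. When oxygen or hydroxylase activity is low, the alpha subunit accumulates, pairs with Arnt and binds the core ACGTG or GCGTG near its target genes. Besides glycolytic enzymes those targets include regulators of mitochondria, of growth signalling and of transcription, and secreted proteins that act on vessels and lipids. Several of them also answer to other signals, such as amino acid stress (Ddit4, Stc2) or fatty acids through PPAR receptors (Angptl4).

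The RefSeq promoter table (build GRCm38.p6) covers 7 of the 10 genes and not Ndufa4l2, Bhlhe40 or Angptl4, and lists 12 start sites for the 7. Stretches before the start sites are shown because they hold the letters of the HIF core in genes that differ widely in their ratios. Each is written 5′ to 3′ on the gene's strand, with matches to ACGTG or GCGTG on either strand in capitals, so that a match on the opposite strand reads CACGT or CACGC. The first is Ddit4 (chr10:59951771-59952020, minus strand), then Stc2 (chr11:31370062-31370311, minus), Adm (chr7:110627407-110627656, plus) and Fam162a (chr16:36071562-36071659, minus). Shorter stretches of 30 bases follow for Ankrd37 (chr8:46000071-46000100 and chr8:45999851-45999880, minus), for the second listed start of Mxi1 (chr19:53329333-53329362, plus) and for the fourth listed start of Ak4 (chr4:101419477-101419506, plus).
Ddit4: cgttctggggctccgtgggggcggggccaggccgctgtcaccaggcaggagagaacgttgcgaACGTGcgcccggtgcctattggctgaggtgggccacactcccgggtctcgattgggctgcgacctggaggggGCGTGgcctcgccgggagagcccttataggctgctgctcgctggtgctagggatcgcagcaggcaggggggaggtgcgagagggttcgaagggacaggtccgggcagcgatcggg
Stc2: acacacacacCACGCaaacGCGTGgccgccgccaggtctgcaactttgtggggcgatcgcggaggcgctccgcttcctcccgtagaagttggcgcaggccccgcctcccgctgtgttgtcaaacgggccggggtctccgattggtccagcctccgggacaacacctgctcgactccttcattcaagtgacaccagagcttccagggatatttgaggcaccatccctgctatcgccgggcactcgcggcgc
Adm: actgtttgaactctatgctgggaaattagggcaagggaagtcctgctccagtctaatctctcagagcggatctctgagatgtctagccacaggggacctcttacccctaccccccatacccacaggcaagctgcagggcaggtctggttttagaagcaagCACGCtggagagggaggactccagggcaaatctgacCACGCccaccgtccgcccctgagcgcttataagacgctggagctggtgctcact
Fam162a: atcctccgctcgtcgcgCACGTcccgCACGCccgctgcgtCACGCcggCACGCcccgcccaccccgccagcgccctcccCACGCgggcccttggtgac
Ankrd37, far stretch: cccagcagtACGTGcctagctcggctcgca
Ankrd37, near stretch: ggctgcacatgtcagtgtttgggtACGTGa
Mxi1: tccctcggcacccgACGTGcactggcgggg
Ak4: tcccactctgccCACGTGcggggaccggca

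At least 1 of the 2 cores was present in the 300-base window (250 bases before and 50 after the start) of all 7 genes in the table, against 46.7% of the 27025 genes with a promoter entry. ACGTG alone was present in 5 of the 7 (Ddit4, Ankrd37, Fam162a, Mxi1 and Ak4), against 21.8% of genes. A gene counted when any of its windows held a match, and the 7 have 12 windows, against 32851 windows for 27025 genes. The 7 genes thus had more windows per gene in which to match. Both cores contain the dinucleotide CG, and the windows of these genes are rich in it, with a median of 27 CG per window and a range of 9 to 49, against a median of 7 over all 32851 windows. Among the 14281 windows with at least 10 CG, 68.4% held a core and 28.0% held ACGTG. Of the 11 such windows of these genes, 10 held a core and 6 held ACGTG. A minimum of 10 CG does not match windows with a median of 27, so no enrichment beyond CG content is read from these shares. The windows of Ak4 start sites 1, 2 and 3 overlap and hold the same 2 GCGTG matches. The counts over windows are therefore not counts of separate sites. Fam162a had the most matches, 1 ACGTG and 5 GCGTG, although its ratio was smaller than those of Ddit4 and Adm. The first listed start of Mxi1 had none, and its other start sites had 1 ACGTG each. In Ak4 the ACGTG match at the fourth start lies in CACGTG, the E-box that Myc and Max bind, where ACGTG reads on both strands, and a GCGTG lies after that start; 8.09% of genes hold CACGTG. A match shows that the letters are there, not that HIF binds.

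**Figure D1:**
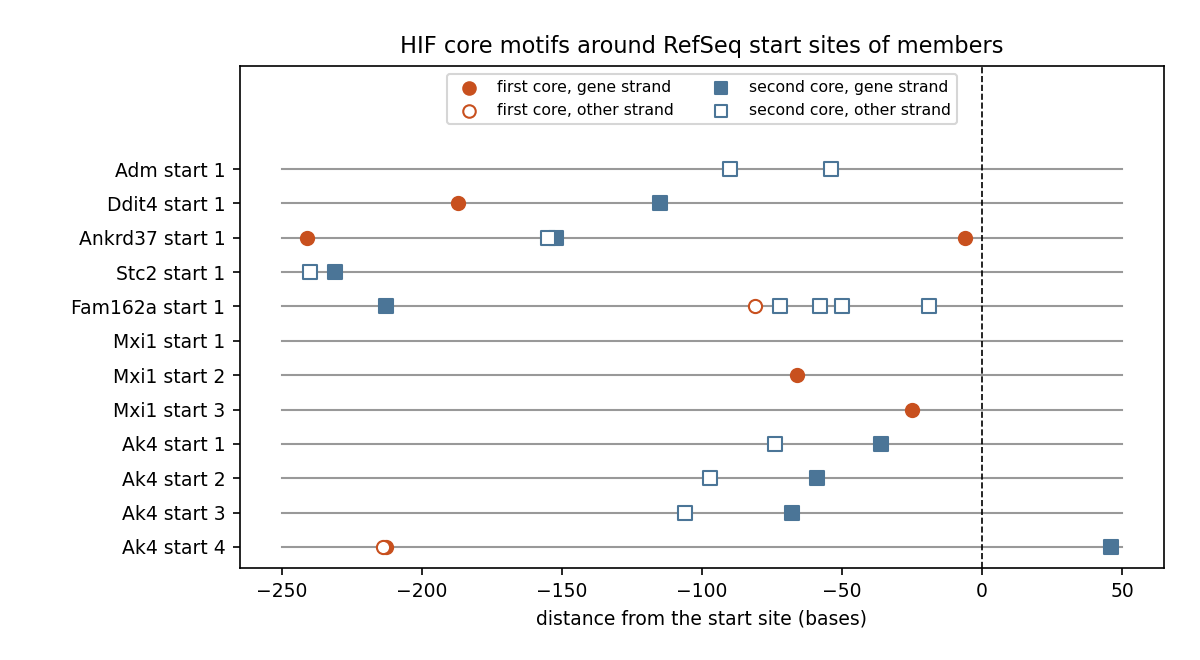
Position of each core around the RefSeq start sites of the 7 genes in the promoter table, in bases from the start site (dashed line); circles mark ACGTG (first core) and squares GCGTG (second core), filled on the gene's strand and open on the other strand. Of the 12 windows, 11 hold at least 1 core, the first start of Mxi1 holds none, and Fam162a holds 6. The windows of Ak4 start sites 1, 2 and 3 overlap and show the same 2 GCGTG matches.

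Each value below is a MAS5 signal, the brightness of a probe set in arbitrary units, and each ratio is the log2 of FGF10 signal divided by control signal, less the median ratio (0.034). A probe set was kept when its mean signal over both arrays reached 76.35, the median over probe sets, since dimmer values are noisy; 17 of the 20 were kept, and each of the 10 genes had at least 1. A gene took the ratio of its brightest kept probe set. By that reading 6 genes were at least 1.5-fold higher on the FGF10 array (Ndufa4l2, Ddit4, Adm, Bhlhe40, Ak4 and Stc2), where 5.41% of all genes were. Of these, 4 were at least 2-fold higher, where 1.32% of all genes were. Fam162a, Ankrd37 and Mxi1 lay within 1.5-fold, and Angptl4 was lower by at least 1.5-fold, where 4.86% of all genes were. The median of the 10 log2 ratios was 0.77, beside -0.027 over all genes. Over the 17 kept probe sets, 10 were at least 1.5-fold higher (6.68% of all kept probe sets with 1 gene) and 1 lower (4.48%). Ndufa4l2 and Adm passed the filter only through their FGF10 signals, so the counts over genes that passed cannot be read as support. Among the other 8, with both signals at or above 76.35, 4 were at least 1.5-fold higher (4.53% of all such genes), 2 of them at least 2-fold (0.89%), and 1 lower (3.67%). With signals under 76.35 raised to that value, 6 of the 10 were at least 1.5-fold higher (4.9% of genes) and 4 at least 2-fold (1.01%). Ratios in bulk RNA cannot tell more cells that express a gene from more RNA per cell.

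**Figure D2:**
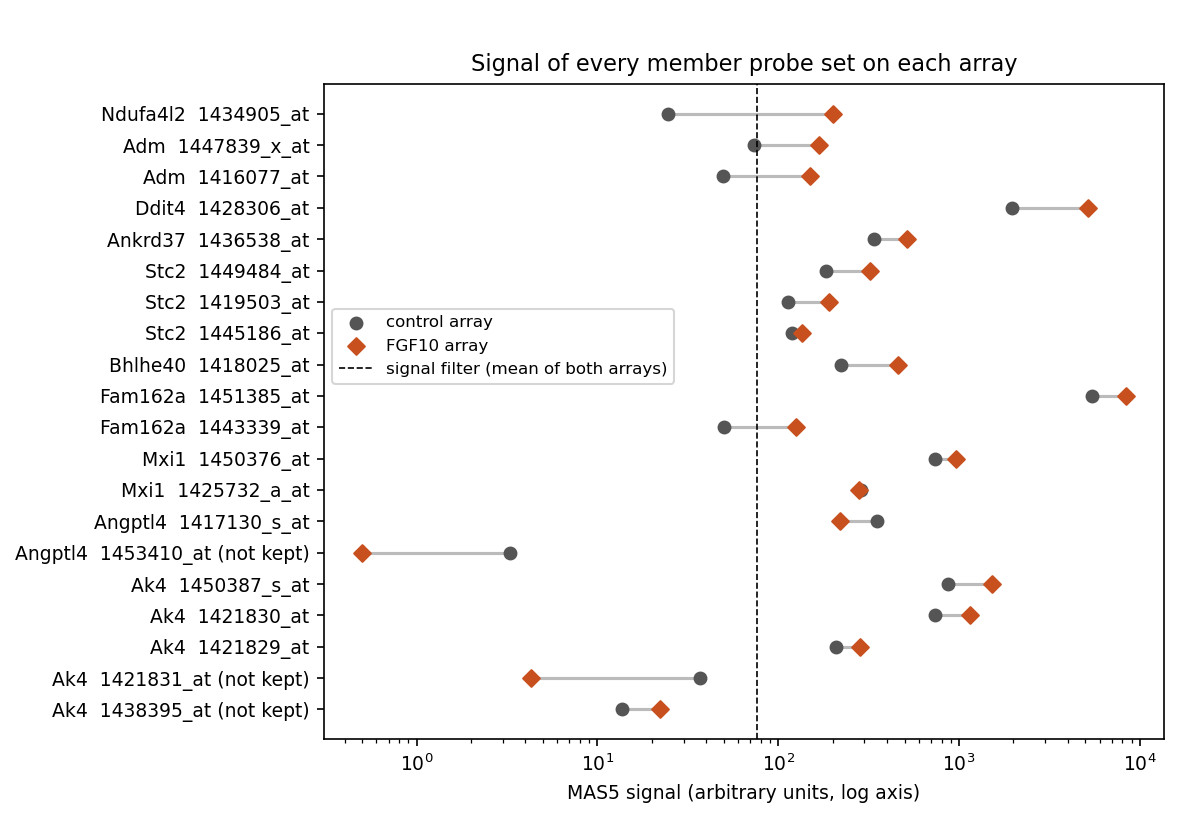
MAS5 signal (arbitrary units, log axis) of all 20 probe sets of the 10 genes on the control array (grey circles) and the FGF10 array (orange diamonds); the dashed line is the filter of 76.35 on the mean of both arrays. The FGF10 signal is higher in 15 of the 17 kept probe sets (54.2% of all kept probe sets with 1 gene), 4 of which were kept only through that signal, in 11 of the other 13 (54.1% of all such probe sets), and lower in a probe set each of Mxi1 and Angptl4.

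Ndufa4l2 encodes a mitochondrial protein related to the cytochrome oxidase subunit Ndufa4 and known to lower respiration under hypoxia. Its only probe set read 24.6 in the control and 200 with FGF10. The control signal lies at percentile 27.6 of its array, in the range where a transcript may not be above background. The FGF10 signal lies at percentile 64.2 of its array, above the filter. The ratio was 2.99 on the log2 scale, the seventh highest of 11122 genes, but its size is not known, because raising the control signal to 76.35 brings it to 1.36, or 2.56-fold. Ndufa4 itself, read by 1 bright probe set, went the other way, from 8070.5 to 6462.5 (-0.35, within 1.5-fold). Cytochrome oxidase subunit Cox4i1 was at -0.20 and Cox6a1 at -0.15, while Cox4i2, the subunit isoform known for its link to hypoxia, was below the filter with signals of 60 and 27.6.

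Fam162a, a mitochondrial protein tied to cell death in hypoxia, was the brightest of the 10 genes. Its bright probe set went from 5457.8 to 8365.4 (a log2 ratio of 0.58, just short of 1.5-fold). A dim probe set of the gene went from 50.4 to 124.7 (1.27), with its control signal below the filter. Both readings are in the same direction, and they differ in size by 0.69. Genes as bright as Fam162a spread little: genes were divided by mean signal into 5 classes of equal size, and in the brightest class the central 95% of log2 ratios ran from -0.50 to 0.43, so Fam162a lies above that range while failing the 1.5-fold count. Voltage-dependent channel gene Vdac2, a partner of Fam162a in the outer mitochondrial membrane, was at -0.22.

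Ak4 encodes an adenylate kinase of the mitochondrial matrix and was read by 5 probe sets. The brightest, of the _s_at type, whose probes can also match transcripts of other genes, went from 865.5 to 1514.0 (0.77). The next went from 740.3 to 1154.8 (0.61) and the third from 209.2 to 283.9 (0.41). All 3 kept probe sets were thus higher with FGF10, with less difference the dimmer the probe set. The remaining probe sets of Ak4 were far below the filter, with control and FGF10 signals of 36.7 and 4.3 on one and 13.6 and 22.3 on the other, and they point in opposite directions. Of its relatives, Ak1 was at -0.12 and Ak3, the closest matrix kinase, at -0.025, while Ak5 and Ak7 were below the filter.

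Ddit4, also called Redd1, restrains the growth kinase complex mTORC1 through the Tsc1 and Tsc2 proteins. Its only probe set read 1957.6 in the control and 5179.6 with FGF10, 2.58-fold higher (1.37 on the log2 scale). Both signals are bright, at percentiles 91.1 and 96.7 of their arrays. Its relative Ddit4l was at 0.016 on its brightest probe set, with a range of -0.63 to 0.13. Among the genes it acts through, Tsc1 was at 0.68, with 0.26 on its other kept probe set, Tsc2 at 0.24, the kinase Mtor at 0.16 (-0.25 on another probe set), its partner Rptor at 0.13 and the activator Rheb at -0.27. Only Tsc1 of these passed 1.5-fold.

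Bhlhe40 and Mxi1 encode repressors of transcription. Bhlhe40, also known as Dec1, is a basic helix-loop-helix factor of the circadian system, and its only probe set went from 221.8 to 460.7, a log2 ratio of 1.02 or 2.03-fold. Its relative Bhlhe41 was below the filter on both arrays (39.6 and 53.2).

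Mxi1 competes with Myc proteins for their partner Max. The brighter of its probe sets went from 739.8 to 960.4 (0.34) and the other, of the _a_at type, which can match several transcripts of the gene, from 286.4 to 278.1 (-0.077). The 2 probe sets disagree in sign and both lie within 1.5-fold, so no direction is given for Mxi1. Max was read by 1 probe set that went from 422.4 to 1000.1 (1.21). Myc was at 0.27, Mycn at -0.12, Mlx at 0.033 and the Mlx-regulated gene Txnip at 0.24. Other members of the Max-binding repressor family were at 0.67 (Mxd1, with a control signal of 60.6, and 0.34 when that is raised to 76.35), 0.57 (Mnt), 0.46 (Mxd4, -0.22 on another probe set) and 0.18 (Mxd3).

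Ankrd37, an ankyrin repeat protein known as a direct HIF target, had 1 probe set, which went from 338.7 to 513.7. That is 1.48-fold, a log2 ratio of 0.57, and it lies inside the central 95% of its signal class (-0.72 to 0.92).

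The secreted factors of the set did not share a direction. Adm encodes the precursor of adrenomedullin, a peptide that widens vessels and acts on the receptor Calcrl when it is joined by Ramp2 or Ramp3. Its brightest probe set, of the _x_at type, in which some probes can match other transcripts, went from 73.7 to 167.1 (1.15). The other went from 49.3 to 149.3 (1.56). Both control signals were below the filter and both FGF10 signals above it, and with the control signals raised to 76.35 the ratios were 1.10 and 0.93. The related peptide gene Adm2 was below the filter (47.4 and 53.3). Calcrl was below it as well (42.2 and 46.5), and so was Ramp1 (56.7 and 7.3). Ramp2 was at 0.14, Ramp3 at -0.23 and Pam, the enzyme that amidates the peptide, at 0.43.

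Stc2 encodes stanniocalcin 2, a secreted glycoprotein that inhibits the protease Pappa. Its 3 probe sets, all kept, went from 184.9 to 321.6 (0.76), from 113.0 to 190.1 (0.72) and from 119.2 to 135.5 (0.15). The first and second agree within 0.05, and the third is in the same direction but close to equal on the arrays. Stc1 was at 0.77 with a control signal of 74.7, just under the filter, and Pappa was below the filter (19 and 35.1).

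Angptl4, a secreted inhibitor of lipoprotein lipase, was the exception to the direction of the set. Its kept probe set, of the _s_at type, went from 350.3 to 219.9, a log2 ratio of -0.71 or 1.63-fold lower with FGF10. Its other probe set, with signals of 3.3 and 0.5, was too dim to be read. The ratio of -0.71 lies inside the central 95% of its signal class, whose lower end is -0.72. The lipase gene Lpl had ratios of -0.23 and -0.48 on its probe sets, and Gpihbp1, its anchor on vessel walls, was at 0.17 with dim signals of 77.4 and 89.2. Of its relatives, Angptl6 was at 0.16 and Angptl1 and Angptl7 were below the filter.

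In the order of log2 ratios the 10 genes ran Ndufa4l2 (2.99), Ddit4 (1.37), Adm (1.15), Bhlhe40 (1.02), Ak4 (0.77), Stc2 (0.76), Fam162a (0.58), Ankrd37 (0.57), Mxi1 (0.34) and Angptl4 (-0.71). The technical spread was taken from the difference between probe sets of 1 gene and was an SD of 0.41 in the dimmest signal class and 0.19 in the brightest. Of the 9 neighbouring pairs in this order, 2 were farther apart than the technical SD of a difference: Ndufa4l2 above Ddit4, and Mxi1 above Angptl4. The step at Ndufa4l2 rests on its dim control signal: with that raised to 76.35 its ratio is 1.36 and Ddit4, at 1.37, comes first. The order of the 8 genes from Ddit4 to Mxi1 is therefore not resolved step by step. That spread is technical and does not include variation between cultures. Among the 8 genes above the filter on both arrays, 4 lay above the central 95% of their signal class (Ddit4, Bhlhe40, Ak4 and Fam162a). The other 4 lay inside it (Stc2, Ankrd37, Mxi1 and Angptl4). Ndufa4l2 and Adm lay above theirs as well, but passed the filter only through FGF10 signals. These values come from the ratios that were in view when the genes were chosen, and nothing is read from the count.

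**Figure D3:**
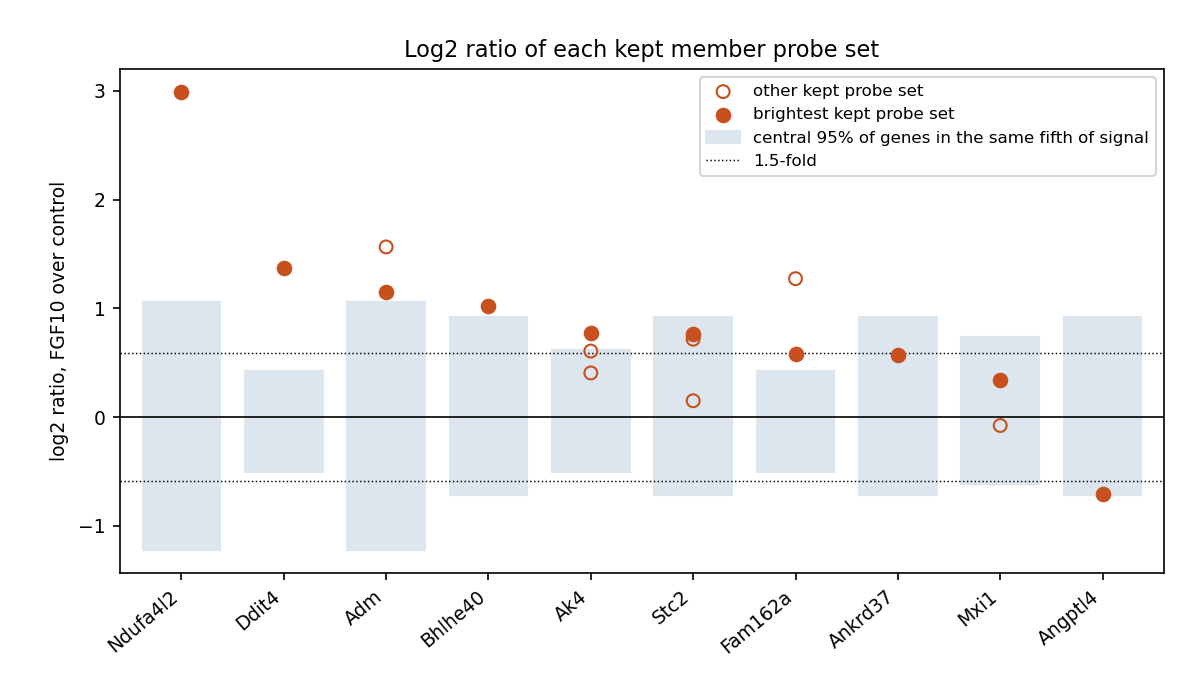
Log2 ratio of FGF10 over control for each kept probe set of the 10 genes, filled for the brightest and open for the others; the shaded boxes are the central 95% of all genes in the same class of mean signal and the dotted lines mark 1.5-fold. Ddit4 (1.37) stands farthest above its box among the bright genes, the probe sets of Mxi1 lie on both sides of 0, and Angptl4 (-0.71) is the only gene whose brightest probe set is below 0.

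**Figure D4:**
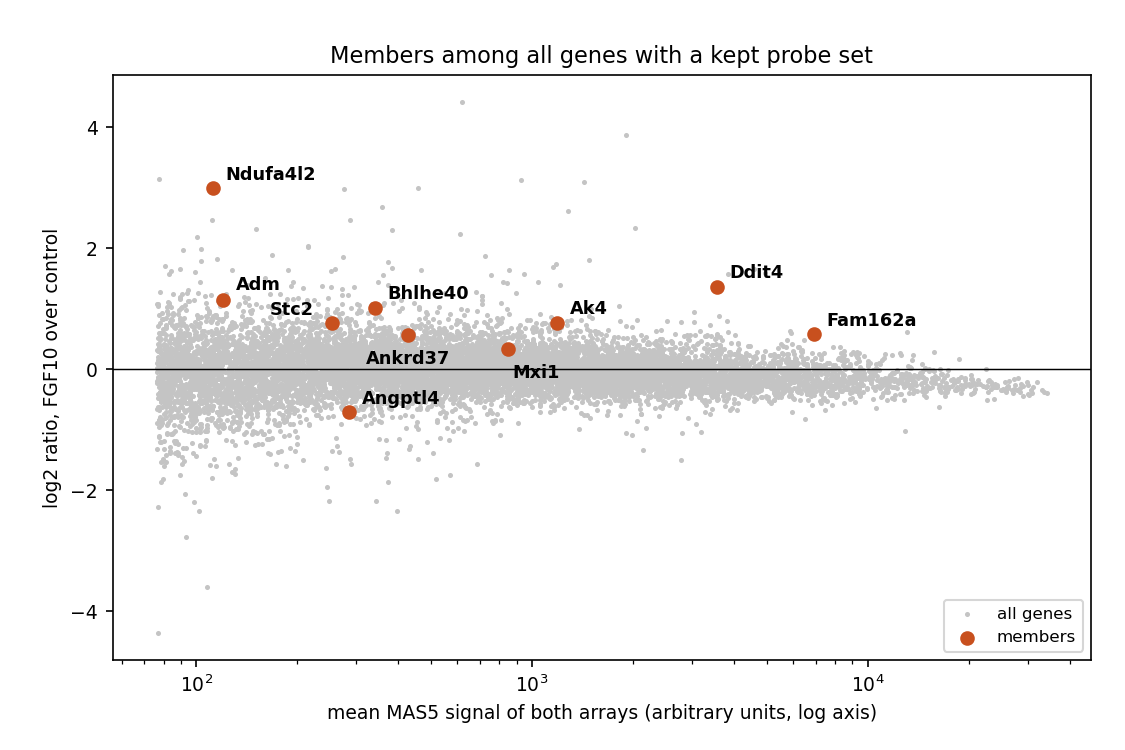
Log2 ratio (FGF10 over control) against mean MAS5 signal (log axis) for all 11122 genes in grey, with the 10 genes in orange. Spread is widest among dim genes, where Ndufa4l2 and Adm lie, and narrow among bright ones, where Ddit4 and Fam162a lie.

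Other genes of the oxygen response were set beside the 10, and their counts are to be read against the 5.41% of all genes at least 1.5-fold higher and the 4.86% lower. All 11 HIF subunit and oxygen sensing genes were measured, and 3 passed 1.5-fold upward and 0 downward, around a median log2 ratio of 0.18 (27.3% higher). These were the hydroxylase genes Egln1 (1.45) and Egln3 (1.08), themselves HIF targets, and Hif3a (0.82, and 0.11 on another probe set). Epas1, which encodes HIF-2 alpha, was at -0.57 and passed 1.5-fold downward after quantile or loess normalization. The transcripts of Hif1a (0.042) and Arnt (0.026), named here after their values were seen, were near equal on the arrays. HIF-1 alpha is controlled mainly through the stability of the protein, which arrays do not measure.

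Of 40 other nonglycolytic targets 29 were measured, 10 of them (34.5%) past 1.5-fold upward and 0 downward, around a median of 0.42. Hmox1 (-0.58) fell just short of 1.5-fold downward, and Vegfa (0.24) and Tfrc (-0.18) lay within 1.5-fold. The other 11 were below the filter, such as Car9 (39.1 and 39), or had no probe set named for them alone. The largest ratios were those of Ndrg1 (3.13, from 186.5 to 1667), a gene of differentiation and stress, Ier3 (1.86), the chemokine receptor gene Cxcr4 (1.64) and Maff (1.51). Cxcr4 also marks definitive endoderm, and its control signal was dim at 89.3. That of Maff was dimmer still, at 82. Of 24 genes of glycolysis and glucose uptake 20 were measured, 7 of them (35%) higher and 0 lower, with a median of 0.24 (0.42 after loess normalization). Aldoc (1.70), Pfkfb3 (1.38), Pfkl (0.88) and Pfkp (0.85) had the largest ratios, while Ldha (0.011), Pdk1 (-0.028) and Pfkfb4 (-0.24) lay within 1.5-fold. These lists were drawn up with earlier results on the same arrays known, and they are described by their counts alone.

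The medians of lists for other signals that act on some of the 10 genes were near 0 or below it. Whether any of these signals differed between the cultures was not tested. In the list of amino acid and endoplasmic reticulum stress genes, 1 of 17 measured (5.88%, close to the 5.41% of all genes) passed 1.5-fold upward and 0 downward, around a median of -0.19. The 1 was Vldlr (1.78), a lipoprotein receptor, and next came Sesn2 (-0.48), Trib3 (0.43, and -0.18 on its other probe set) and Chac1 (-0.42). Of the PPAR list 9 of 16 genes were measured, 1 of them (11.1%) higher and 0 lower, with a median of -0.14; Ppard was at 0.66, Hadha at -0.37, Fabp3 at -0.36 and Acadl at 0.34. The glucocorticoid list had 0 of 10 higher and 1 lower and a median of -0.020, which becomes 0.014 without centring. Its largest ratios were those of Nr3c1 (-0.61), Mt2 (-0.54), Mt1 (-0.42) and Sgk1 (0.24).

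**Figure D5:**
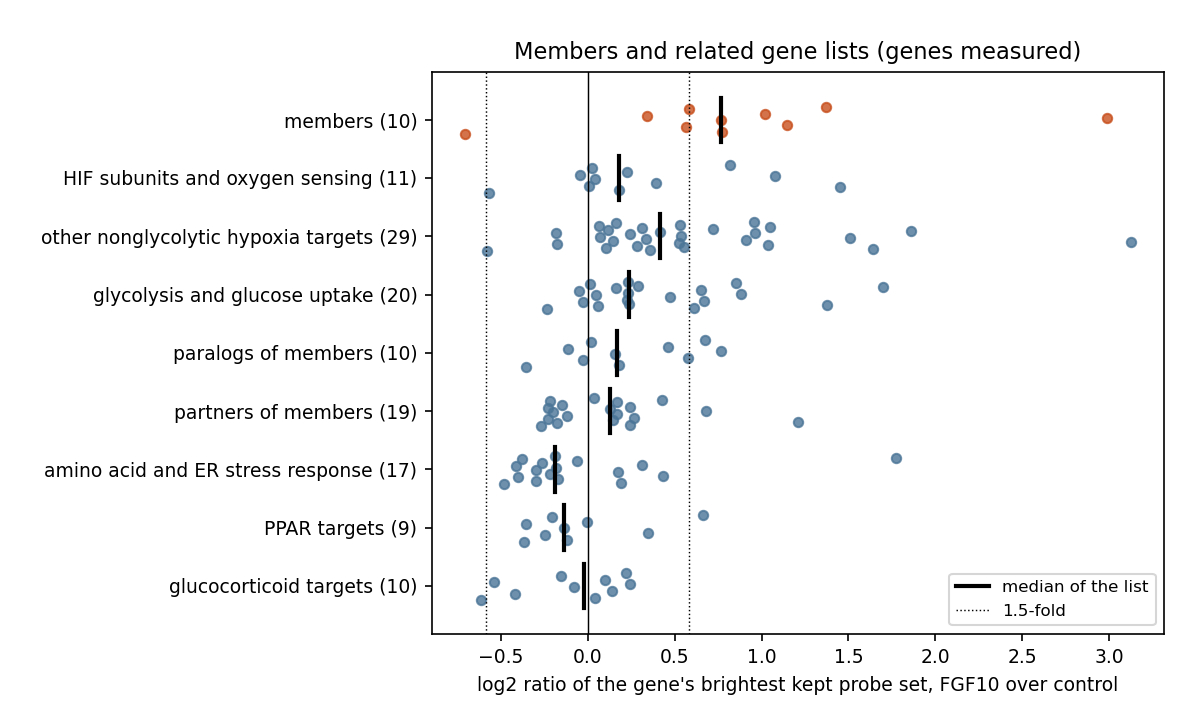
Log2 ratio (FGF10 over control) of the brightest kept probe set of each gene, for the 10 genes (orange) and 8 related lists (blue), with the number of genes measured in brackets; thick bars are list medians and dotted lines mark 1.5-fold. The medians are 0.77 for the 10 genes, 0.42 for other nonglycolytic targets and -0.19 for amino acid and ER stress genes.

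Markers of the cells present moved too, and their part in the ratios above was not tested. All 8 pluripotency markers were measured, with summed signals of 58139 in the control and 49867 with FGF10, and 3 passed 1.5-fold downward and 0 upward. Dppa5a, which went from 17188.2 to 8648.7 (-1.03), fell by more than the sum did, so the other markers together did not fall. Zfp42 (-0.71) and Utf1 (-0.73) were the other 2 past 1.5-fold, while Pou5f1 (0.073), Nanog (0.22), Sox2 (-0.0026) and Tdgf1 (0.0035) were near equal. Of 8 primitive streak markers 7 were measured, all at least 2-fold higher with FGF10, from 1.58 (Eomes) to 3.87 (Mixl1), and their summed signal went from 3459 to 16350. All 10 visceral endoderm markers were measured, 6 past 1.5-fold downward (4 without centring) and 0 upward, and their summed signal was 12196 in the control and 8189 with FGF10. Of 8 feeder fibroblast markers 5 were below the filter (Col1a1 at 9.4 and 8, Postn at 4.7 and 5.3, Dcn at 8.4 and 7.7, with Col3a1 and Lum somewhat higher), and those above it were Thy1 at -0.61, Col1a2 at -0.22 and Vim, which many cell types express, at 0.52. Their summed signal was 3466 in the control and 4668 with FGF10, most of it Vim. Of 6 endothelial markers 5 were below the filter, and their signals ran from 4.2 (Tie1) to 107.3 (Tek) in the control and from 2.2 to 64.5 with FGF10, with sums of 332.7 and 195.8; Tek was at -0.77. Of the 5 blood markers with a named probe set 4 were below the filter, with a range of 10.2 (Hba-a1) to 129.3 (Tal1) in the control and 2.8 to 69.1 with FGF10 and sums of 282.4 and 203.7; Tal1 was at -1.03. The 6 named trophoblast markers had sums of 484.8 and 652.9, with Cdx2, Elf5, Hand1 and Ascl2 below the filter. Of those kept, Krt7 was at -0.23, and Tfap2c, which went from 122.6 to 396.6, was at 1.66.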

How the data were processed

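Total RNA from 2 samples, grouped by their titles, was labelled with biotin and hybridised to 1 Affymetrix array each. The deposited values are MAS5 signals, a linear intensity per probe set, per the submitters' processing notes; version and settings are not given in the sources used here. MAS5 subtracts mismatch probes, so dim values are noisy. With 2% trimmed at each end, both columns average 500.003, as arrays scaled to one target would, and ratios are therefore relative within the pair. Of 45101 probe sets, 64 chip controls were left out, and 34945 of the rest have 1 gene in the platform annotation; 22524 passed the filter, 19966 of them with 1 gene. Ratios used no offset. All columns of the table were used. Calls are counts at 1.5-fold or 2-fold, with no test, since 1 array per group limits the precision. The computation (Python 3.11.15, numpy, pandas, statsmodels) was tested on simulated arrays with planted ratios.

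The 10 genes, the 8 related lists and the 7 marker lists were chosen with earlier results of these data known. Named genes are the 10 genes, their listed relatives and partners, and up to 4 genes with the largest ratio of each other pathway list. The listed partner Cdkn1a was not described above. It was at -0.18, with -0.12 on its other kept probe set. Cell type markers and the genes Hif1a, Arnt, Hmox1, Vegfa, Tfrc, Car9, Ldha, Pdk1 and Pfkfb4 are outside this rule. Those named were chosen after their values were seen. Promoter letters come from RefSeq (GRCm38.p6); no coordinates are given for probe sets, whose build is not stated. A planned comparison of protein sequences was not run. The 11 alternatives on the array values were no centring, quantile or loess normalization, an offset of 20.5, no filter, a filter on both arrays or at the 75th percentile, averaging over probe sets, the second brightest probe set, no _x_at or _s_at probe sets, and low signals raised to 76.35; for promoters they were the bases before the start alone and ACGTG alone.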

Additional observations from a re-analysis of the deposited data

How the results depend on the processing

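Direction held in every one of the 11 alternatives for each gene with a value, except Mxi1, which was at -0.077 on its second brightest probe set. The number of genes at least 1.5-fold higher was 6 of 10, where 5.41% of all genes were. It was 4 of 8 with both arrays required above the filter (4.58% of all genes). At the 75th percentile filter it was 3 of 4 (3.56%). In the other alternatives it ran from 6 to 8, of 9 genes without _x_at or _s_at probe sets and of 10 otherwise. The share of all genes ran there from 4.44% with the offset to 13.8% with no filter, where the count was 7. The number at least 2-fold higher was 4, where 1.32% of all genes were, a share not counted for most alternatives. With low signals raised it was 4 of 10 (1.01% of all genes). It was 2 of 8 with both arrays required above the filter, which leaves out Ndufa4l2 and Adm (0.89% of such genes, with the ratios given above). It was 2 of 10 with the offset, 1 of 4 at the 75th percentile filter and 5 of 10 on second brightest probe sets. After quantile or loess normalization it was 3 of 10, with Bhlhe40 at 0.96. Where no share is given, the 2-fold count cannot be compared with all genes. Fam162a passed 1.5-fold in 7 of its 11 alternatives, Ankrd37 in 1 of 10 (no centring), and Stc2 in 9 of 10. Ndufa4l2 ranged most, from 1.36 with low signals raised to 3.02 without centring. The median over the genes stayed between 0.68 and 0.87. A core motif was found in the same 7 promoters with only the bases before the start, and ACGTG alone in 5. Depth of reading limits Ndufa4l2, Adm and the dim probe set of Fam162a, whose control signals may be background. No paired analysis was possible because each group has 1 array and the labels give no replicate numbers.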
